A study of Mus musculus with 6 samples.

Results

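The liver-enriched transcription factors are 9 genes whose proteins hold the hepatocyte's gene expression programme: Hnf4a, Foxa1, Foxa2, Foxa3, Onecut1, Prox1, Cebpa, Cebpb and Cebpd. They were taken by symbol from the deposited table of 29543 gene IDs, and each symbol had 1 row. The study compared RNA from livers of mice (Mus musculus) after hepatic ischemia and reperfusion, in which the blood supply of liver tissue is stopped and then restored during a laparotomy (IR, 3 libraries), with RNA from livers after a laparotomy alone (Sham, 3 libraries). Both groups thus share the opened abdomen. The labels name neither strain, sex, age, the times of ischemia and reperfusion, nor the animals behind the libraries, and a p-value here therefore reflects only how the libraries of a group scatter, which can be technical. Libraries held between 53622229 and 71752584 reads, as computed from the values. The tissue label was checked against 15 hepatocyte markers, of which 14 were found and tested, with a summed level of 61050 to 64740 FPKM in IR and 74130 to 76450 FPKM in Sham.

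Hepatocyte identity rests on a small network of factors that bind one another's promoters. HNF4A is a nuclear receptor, the FOXA proteins are pioneer factors with a forkhead domain that open chromatin, ONECUT1 (HNF6) joins a cut domain to a homeodomain, and PROX1 is a homeodomain protein that can act as a co-repressor of HNF4A. The C/EBP proteins are basic leucine zipper factors that pair with one another. C/EBP alpha serves metabolism and restrains proliferation, while C/EBP beta and delta are induced by cytokines of the acute phase response and bind similar sites.

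A promoter window each of 5 members is shown because the results turn on these genes: Hnf4a, Foxa3 and Cebpb were higher in IR, Foxa1 was lower, and Cebpa is the counterpart of Cebpb. They come from RefSeq, build GRCm38.p6, and run from 250 bases before to 50 bases after an annotated start, on the gene's strand. Of the 9 members, 8 had 12 windows in that table. The Hnf4a window shown, that of its upstream start, lies at chr2:163506607-163506906 (plus strand). The others are Cebpb at chr2:167688665-167688964 (plus strand), Cebpa at chr7:35119043-35119342 (plus strand), Foxa3 at chr7:19023490-19023789 (minus strand) and Foxa1 at chr12:57546062-57546361 (minus strand). Capitals mark matches, on either strand, to the motifs spelled out after the sequences.
Hnf4a upstream start: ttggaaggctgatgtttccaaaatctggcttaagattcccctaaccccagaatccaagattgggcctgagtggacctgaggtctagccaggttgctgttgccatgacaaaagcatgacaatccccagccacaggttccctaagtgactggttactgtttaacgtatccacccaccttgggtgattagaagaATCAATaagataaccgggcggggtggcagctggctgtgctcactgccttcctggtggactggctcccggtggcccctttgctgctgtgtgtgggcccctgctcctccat
Cebpb: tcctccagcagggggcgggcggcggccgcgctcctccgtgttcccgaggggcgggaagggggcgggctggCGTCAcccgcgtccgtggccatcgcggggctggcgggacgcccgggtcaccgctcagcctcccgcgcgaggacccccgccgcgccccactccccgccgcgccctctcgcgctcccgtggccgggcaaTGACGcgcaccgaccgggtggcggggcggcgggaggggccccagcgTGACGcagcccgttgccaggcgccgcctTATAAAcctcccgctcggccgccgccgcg
Cebpa: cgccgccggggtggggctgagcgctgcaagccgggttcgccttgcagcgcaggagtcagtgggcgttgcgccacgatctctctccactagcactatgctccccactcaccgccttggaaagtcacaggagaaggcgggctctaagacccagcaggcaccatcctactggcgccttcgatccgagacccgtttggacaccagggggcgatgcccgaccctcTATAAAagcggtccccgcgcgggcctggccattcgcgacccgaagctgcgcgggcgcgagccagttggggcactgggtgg
Foxa3: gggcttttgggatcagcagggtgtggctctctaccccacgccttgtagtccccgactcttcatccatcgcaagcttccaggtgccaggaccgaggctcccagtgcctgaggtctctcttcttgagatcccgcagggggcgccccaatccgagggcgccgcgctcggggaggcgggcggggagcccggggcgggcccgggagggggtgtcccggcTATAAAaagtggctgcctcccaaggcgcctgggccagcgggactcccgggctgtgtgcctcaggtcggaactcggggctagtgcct
Foxa1: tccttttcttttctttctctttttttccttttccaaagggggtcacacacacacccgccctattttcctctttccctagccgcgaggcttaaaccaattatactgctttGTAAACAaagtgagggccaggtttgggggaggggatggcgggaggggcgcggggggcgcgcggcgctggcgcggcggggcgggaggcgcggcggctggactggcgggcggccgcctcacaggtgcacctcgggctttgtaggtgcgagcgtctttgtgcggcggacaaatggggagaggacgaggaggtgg

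Each motif was searched on both strands. In the Cebpb window the core of a cyclic AMP response element (CRE, letters TGACG) matched at 3 places, between -180 and -176, -53 and -49, and -7 and -3 relative to the start. Of all 32851 windows in the table, 20.8% held at least 1 such core. The letters TATAAA of a TATA box lay at 22 to 27 in the Cebpb window, at -30 to -25 in the Cebpa window and at -36 to -31 in the Foxa3 window, and 13.6% of all windows held them. The upstream Hnf4a window held the core of an HNF6 site (ATTGAT, reverse strand) at -59 to -54, as did 7.54% of all windows in any place. Foxa1 held a FOXA site (TGTTTAC, reverse strand) at -141 to -135, found in 3.65% of all windows. The Onecut1 window, not printed, held an E-box (CACGTG, in 7.15% of all windows) and 1 CRE core. Among the other windows not printed, a Foxa2 window held an HNF6 core at -213 to -208 and a CRE core at 2 to 6. Another Foxa2 window and a Prox1 window held TATAAA on the reverse strand, at -208 to -203 and at -34 to -29. The letters of a C/EBP site, TTNNGCAA, were in none of the 12 windows of the members and in 10.8% of all windows. The same held for a STAT site, TTCNNNGAA, which 8.30% of all windows held. This says only that these letters are not in these windows. No 2 of these matches overlapped. With 80.7% G or C the Cebpb window was the richest of the 12, against a median of 52.7% over all windows.

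All 9 members passed the filter of a mean of at least 1 FPKM, a level scaled by gene length and library size. With the deposited scaling, 4 were higher in IR (Hnf4a, Foxa3, Cebpb and Cebpd) and 5 lower (Foxa1, Foxa2, Onecut1, Prox1 and Cebpa) at an adjusted p under 0.05 in limma. All 9 were thus called, where 78.1% of the 10316 genes tested were. Of the members 44.4% were higher and 55.6% lower, against 24.3% and 53.8% of the genes tested. The members' share of lower calls is thus near that of all genes. For each member the IR and Sham libraries did not overlap, as in 80.6% of all genes tested. Over the genes tested the log2 fold change had a median of -0.23, and median-of-ratios scaling, which divides each library by the median of its genes' ratios to their mean, moved it to 0.08. With it 4 members were higher and 2 lower, 6 calls in all, and of all genes 75.2% were called, 42.8% higher and 32.4% lower.

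**Figure D1:**
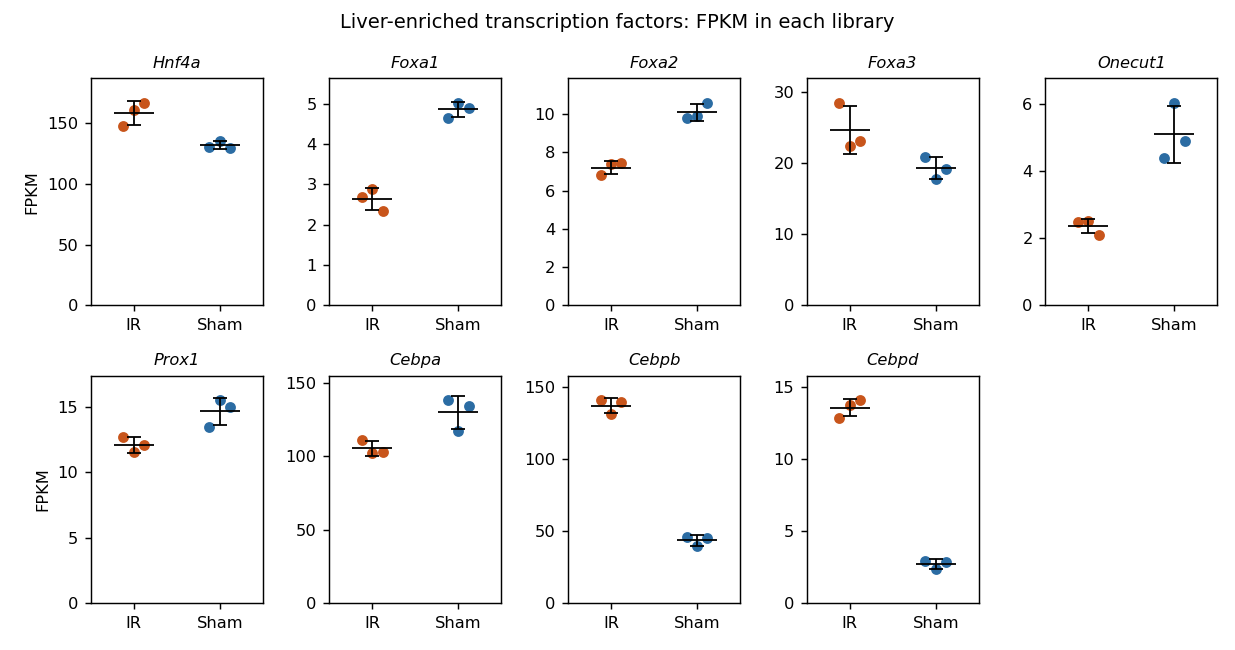
FPKM of the 9 factors in each library, IR left and Sham right. Points are libraries, bars the mean ± SD of 3. Cebpb and Cebpd stand far higher in IR, Hnf4a and Foxa3 somewhat higher, and Foxa1 and Onecut1 are lower in IR. Cebpa, Prox1 and Foxa2 are lower in IR as deposited, but under median-of-ratios scaling Cebpa and Prox1 had the opposite sign and none of the 3 passed.

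Hnf4a, the nuclear receptor at the centre of the network, was the most abundant member in IR and was higher there than in Sham, where its level overlapped that of Cebpa. It lies on mm10 chromosome 2 from 163506808 to 163572910, plus strand (ENSMUSG00000017950). Its level was 148, 161 and 167 FPKM in IR libraries 1, 2 and 3, against 131, 136 and 129.8 FPKM in Sham libraries 1, 2 and 3. The lowest IR library was 11.7 FPKM above the highest Sham library. The means were 158 ± 9.93 FPKM in IR and 132 ± 3.27 FPKM in Sham (SD, n = 3 each), a ratio of 1.20. In limma the log2 fold change of IR over Sham was 0.26 with an SE of 0.0549 and an adjusted p of 0.00304, which is 0.49 above the median of all genes, and 2123 genes had a larger one. It was 0.66 with median-of-ratios scaling. The gene-level values do not separate transcripts of the upstream from those of the downstream start.

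The 3 Foxa genes, which encode closely related forkhead proteins, did not move together. Foxa3 was higher in IR (log2 fold change 0.34, SE 0.0984, limma adjusted p = 0.0145), while Foxa1 (-0.69, SE 0.0666, adjusted p = 3.75e-05) and Foxa2 (-0.44, SE 0.0531, adjusted p = 0.000143) were lower. Under median-of-ratios scaling Foxa3 stood at 0.72 and Foxa1 at -0.38, both past the threshold, whereas Foxa2 at -0.08 did not pass (adjusted p = 0.181).

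Foxa3 (mm10 chromosome 7, 19023538 down to 19013284, minus strand) had the highest RNA level of the Foxa genes in both groups. It was at 28.5, 22.4 and 23.1 FPKM in IR libraries 1, 2 and 3, against 20.9, 17.8 and 19.1 FPKM in Sham libraries 1, 2 and 3. IR library 1 stood well above the other two, and the gap between the groups was 1.48 FPKM. Without IR library 1 the log2 fold change was 0.23 (adjusted p = 0.0246), and without Sham library 2 the adjusted p was 0.0491.

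Foxa2 (chromosome 2, 148042877 to 148046969, minus strand), a regulator of bile acid and lipid genes, was at 6.83, 7.38 and 7.42 FPKM in the IR libraries, against 9.80, 9.93 and 10.6 FPKM in the Sham libraries. Foxa1 (chromosome 12, 57540628 to 57546916, minus strand), which overlaps with Foxa2 in function, was at 2.68, 2.89 and 2.34 FPKM in IR, against 4.65, 5.03 and 4.90 FPKM in Sham. Every IR library lay below every Sham library for both. The mean of Foxa1 was 1.84-fold and that of Foxa2 1.40-fold lower in IR.

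Summed over the 3 genes with the deposited scaling, Foxa RNA was 32.6 to 38.0 FPKM in IR and 32.7 to 35.3 FPKM in Sham, so that the groups overlapped. This overlap depends on the scaling. Median-of-ratios scaling divides the IR libraries by 0.829 to 0.901 and the Sham libraries by 1.13 to 1.17. It thus raises the IR sums and lowers the Sham sums. The makeup of the sum differed between the groups. Foxa3 gave 71.3% ± 3.33 of the sum in IR and 56.2% ± 2.55 in Sham (SD, n = 3 each), Foxa2 gave 21.1% ± 2.67 in IR and 29.6% ± 1.60 in Sham, and Foxa1 gave 7.67% ± 1.02 in IR and 14.2% ± 1.10 in Sham. The ratio of Foxa3 to Foxa2, which no scaling of whole libraries changes, was 4.17, 3.03 and 3.11 in IR, against 2.13, 1.79 and 1.80 in Sham. On the log2 scale of FPKM + 1 the difference was 0.77 (exact two-sided permutation p = 0.1, the smallest that 3 libraries against 3 allow).

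**Figure D2:**
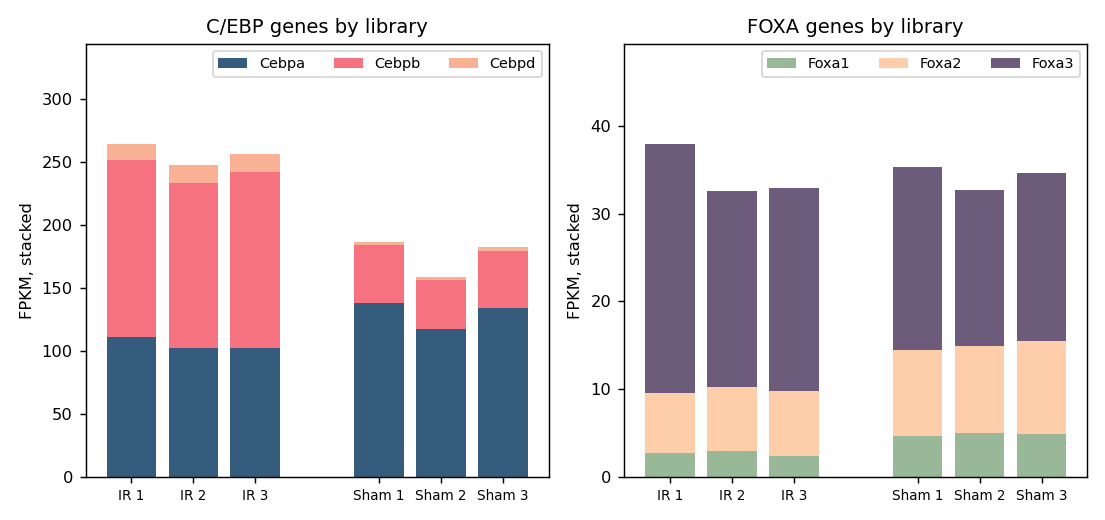
FPKM of Cebpa, Cebpb and Cebpd (left) and the Foxa genes (right), stacked by gene in each library, with the IR libraries left of the Sham libraries. With the deposited scaling shown, the Foxa sums overlap between groups, with Foxa3 a larger part in IR. The sums of the 3 C/EBP members are 247 to 264 FPKM in IR and 159 to 187 FPKM in Sham. Cebpb is their larger part in IR and Cebpa in Sham.

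Onecut1, the gene of HNF6, had the largest fall among the 9 members. On mm10 chromosome 9 from 74861921 to 74891781, plus strand, it was at 2.47, 2.50 and 2.11 FPKM in the IR libraries, against 4.38, 6.05 and 4.90 FPKM in the Sham libraries. Sham library 2 was the highest and the Sham libraries spread more widely (coefficient of variation 16.7%) than the IR libraries (9.25%). The mean was 2.16-fold lower in IR, with a log2 fold change of -0.85 (SE 0.103, limma adjusted p = 0.000134) and, with median-of-ratios scaling, of -0.55 (adjusted p = 0.00271). The annotated noncoding gene Gm20649 shares 52.8% of the exon bases of Onecut1 on the same strand, so that the counting could have left out or shared part of its reads. The paralog Onecut2 was lower as well, at 1.75 ± 0.129 FPKM in IR and 5.18 ± 0.126 FPKM in Sham (-1.17).

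Prox1, the homeodomain co-repressor, differed between the groups about as much as the median gene did. Its level, on chromosome 1 from 190118035 to 190170714, minus strand, was 12.7, 11.5 and 12.04 FPKM in IR, against 13.4, 15.5 and 15.0 FPKM in Sham. The groups did not overlap, but the gap was 0.753 FPKM. With the deposited scaling it was lower in IR (log2 fold change -0.26, SE 0.0641, limma adjusted p = 0.00703), 0.02 below the median of all genes, but median-of-ratios scaling put it at 0.12, which did not pass (adjusted p = 0.230). Lymphatic endothelium also expresses Prox1. Of 8 lymphatic markers 4 were tested, of which Lyve1 was higher, Ccl21a and Reln were lower and 1 did not pass. Reln had an IR mean under 1 FPKM and passed the filter only through Sham. The summed level of the list was 26.1 to 56.2 FPKM in IR and 20.3 to 26.7 FPKM in Sham, but Lyve1, which sinusoidal endothelium also expresses, gave 83.2% to 86.6% of it in IR and 43.0% to 47.3% in Sham. Without Lyve1, left out after seeing the values, the other 7 summed to 3.69 to 7.54 FPKM in IR and 11.3 to 15.2 FPKM in Sham, the opposite direction. No marker was at 0 in every library, and their part in the Prox1 result was not tested.

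Cebpd and Cebpb showed the largest changes of the 9 members. Cebpd, the least abundant member in Sham, was 5.02-fold and Cebpb 3.15-fold higher in IR, while Cebpa was 1.23-fold lower in IR with the deposited scaling but at 0.10 on the log2 scale, not passing (adjusted p = 0.292), with median-of-ratios scaling. Both rises were among the larger ones of the table, with 235 genes above Cebpd and 332 above Cebpb in log2 fold change.

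Cebpb, the cytokine-induced member (chromosome 2, 167688915 to 167690418, plus strand, a single exon), was at 141, 131 and 139 FPKM in the IR libraries, against 45.8, 39.3 and 45.3 FPKM in the Sham libraries. The lowest IR library lay 85.4 FPKM above the highest Sham library. The fitted log2 fold change, IR over Sham, was 1.64 with an SE of 0.0668 (adjusted p = 4.48e-07 in limma). The opposite strand gene Tmem189 covers 20.7% of its exon bases and stood at 2.47 ± 0.0706 FPKM in IR and 2.49 ± 0.0453 FPKM in Sham, far below Cebpb; under median-of-ratios scaling it was higher in IR (0.27).

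Cebpd, the other inducible member (chromosome 16, 15887286 to 15891031, plus strand, a single exon), was at 12.9, 13.8 and 14.1 FPKM in IR, against 2.92, 2.33 and 2.85 FPKM in Sham. The lowest IR library was 9.95 FPKM above the highest Sham library. In limma the log2 fold change of IR over Sham was 1.98 with an SE of 0.0736 and an adjusted p of 2.90e-07. Spidr, on the opposite strand, covers 15.0% of its exon bases and stood at 0.553 ± 0.0325 FPKM in IR and 0.444 ± 0.0295 FPKM in Sham. No promoter window of Cebpd was matched.

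Cebpa, the metabolic member (chromosome 7, 35119293 to 35121928, plus strand, a single exon), was at 111, 102 and 103 FPKM in IR, against 138, 117 and 134 FPKM in Sham. Sham library 2 was the lowest of its group and 6.22 FPKM above the highest IR library. The fitted log2 fold change, IR over Sham, was -0.30 with an SE of 0.0704 (adjusted p = 0.00533 in limma), 0.06 below the median of all genes. The same Sham library was also the lowest of its group for Cebpb, Cebpd and Foxa3 and the highest for Hnf4a, Onecut1, Prox1 and Foxa1.

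Of the summed RNA of Cebpa, Cebpb and Cebpd, leaving aside other C/EBP genes, Cebpb was the largest part in IR and Cebpa in Sham. In IR Cebpb made up 53.6% ± 0.767, Cebpa 41.1% ± 0.965 and Cebpd 5.31% ± 0.383 of the FPKM summed over these 3 genes, whereas in Sham Cebpb made up 24.7% ± 0.167, Cebpa 73.8% ± 0.157 and Cebpd 1.53% ± 0.0561 (SD, n = 3 each). The ratio of Cebpb to Cebpa was 1.27, 1.28 and 1.36 in the IR libraries, against 0.332, 0.336 and 0.337 in the Sham libraries. The spread within a group was small beside the gap. On the log2 scale of FPKM + 1 the ratios differed by 1.93 (exact two-sided permutation p = 0.1, the smallest possible here). The FPKM of different genes are set side by side per length, and they are RNA levels, which do not give the amounts of the proteins or of their shorter and longer forms.

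Cebpb and Cebpd are also expressed by myeloid cells. Of 14 neutrophil markers 8 were tested and all 8 were higher in IR, led by Retnlg, S100a9, S100a8 and Mmp8. Over all genes tested, 24.3% were higher and 53.8% lower with the deposited scaling. Some of the 8, Retnlg and Mmp8 among them, had Sham means under 1 FPKM. These passed the filter only through IR, where they were high. The summed level of all 14 was 159 to 202 FPKM in IR and 11.7 to 13.2 FPKM in Sham. Ly6g, named because it is a defining marker, was under the filter, at 0.336 ± 0.290 FPKM in IR and 0.0106 ± 0.0184 FPKM in Sham. It was listed at 0 in 2 of the 6 libraries, each a Sham library. Every neutrophil marker under the filter had a higher mean in IR. Of 10 monocyte and macrophage markers 6 were tested, 4 higher and 2 lower (4 higher and 1 lower with median-of-ratios scaling). Their sum of 380.3 to 402 FPKM in IR and 379.5 to 395 FPKM in Sham was mostly Fn1 and F10, which hepatocytes also express and which gave 78.4% to 81.1% of it in IR and 81.1% to 82.1% in Sham. Without these genes, a choice made after seeing the values, the other 8 summed to 74.3 to 86.8 FPKM in IR and 70.8 to 71.7 FPKM in Sham. Chil3, Plac8 and Cd68 were higher and Lyz2 was lower in IR under both scalings. Chil3 had a Sham mean under 1 FPKM and passed the filter only through IR. The 4 under the filter had higher means in IR as well. Of 11 Kupffer cell markers 9 were lower (6 lower and 1 higher with median-of-ratios scaling), with sums of 196 to 247 FPKM in IR and 361 to 371 FPKM in Sham. Their part in the C/EBP results was not tested, and in whole tissue a change in the number of cells and one in the RNA per cell cannot be told apart.

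**Figure D3:**
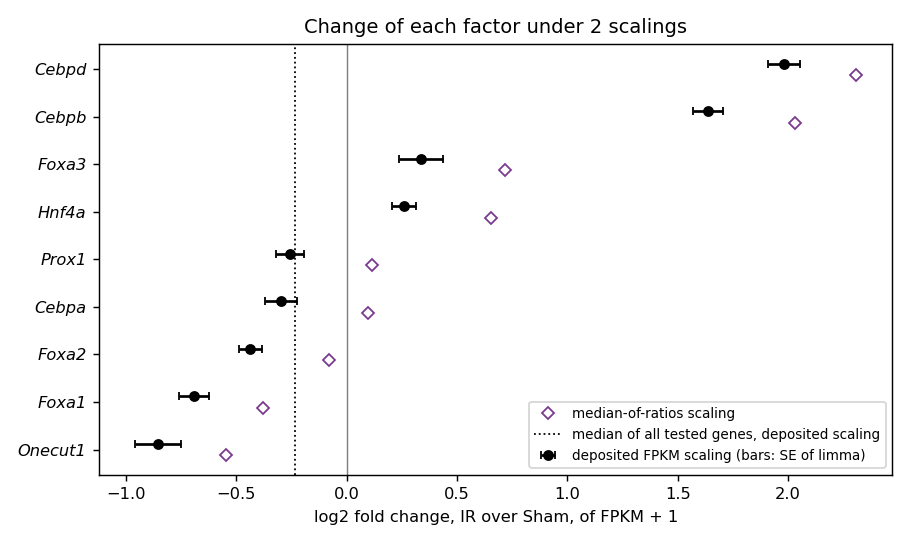
Log2 fold change of FPKM + 1, IR over Sham, of each factor under the deposited scaling (filled, bars SE of limma) and under median-of-ratios scaling (open). The dotted line is the median of all tested genes, -0.23. Cebpd, Cebpb, Foxa3 and Hnf4a lie right of 0 and Foxa1 and Onecut1 left of 0 under both, whereas Prox1 and Cebpa change sign and Foxa2 comes close to 0.

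Ordered by level per length, the members in IR ran from Hnf4a, Cebpb, Cebpa, Foxa3, Cebpd, Prox1 and Foxa2 to Foxa1 and Onecut1. The Sham order was Hnf4a, Cebpa, Cebpb, Foxa3, Prox1, Foxa2, Onecut1, Foxa1 and Cebpd. Neighbours whose libraries overlapped were Foxa1 and Onecut1 in IR, and Hnf4a and Cebpa as well as Onecut1 and Foxa1 in Sham. Cebpd was at rank 5 of the members in IR and at rank 9 in Sham. Rebuilt reads ranged from 40875 to 53475 in IR and 33606 to 47045 in Sham for Hnf4a, the deepest member, and from 421 to 662 in IR and 874 to 1200 in Sham for Foxa1. Counting noise was thus 0.466% of the level for Hnf4a in IR and 4.34% for Foxa1 in IR, where the observed coefficients of variation were 6.27% and 10.4%.

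Several members have antisense genes annotated over them, and 3 of these passed the filter and were lower in IR. Over all genes tested, 53.8% were lower with the deposited scaling and 32.4% under median-of-ratios scaling. Hnf4aos and Gm45091 had IR means under 1 FPKM, so that they passed the filter only through Sham, where they were high. Hnf4aos, which runs from 163493807 to 163541720 on chromosome 2 and so spans the upstream but not the downstream Hnf4a start, was at 0.785, 0.852 and 0.698 FPKM in IR, against 3.06, 2.35 and 2.15 FPKM in Sham (log2 fold change -0.98, SE 0.0985, limma adjusted p = 4.85e-05). It was lower where Hnf4a itself was higher. Gm45091, which shares 51 exon bases with Cebpa, was at 0.0691, 0.173 and 0.184 FPKM in IR, against 3.06, 2.54 and 2.44 FPKM in Sham (-1.69, SE 0.0821, adjusted p = 9.89e-07). Prox1os, which shares 133 exon bases with Prox1, was at 2.59, 2.51 and 2.46 FPKM in IR, against 5.31, 5.37 and 5.09 FPKM in Sham (-0.83, SE 0.0465, adjusted p = 1.99e-06). All 3 stayed lower under median-of-ratios scaling (-0.75, -1.52 and -0.52). The handling of strand in the counting is not given in the sources used here. Reads over the bases shared with Cebpa or Prox1 may therefore belong to either gene. Hnf4aos shares 0 exon bases with Hnf4a.

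**Figure D4:**
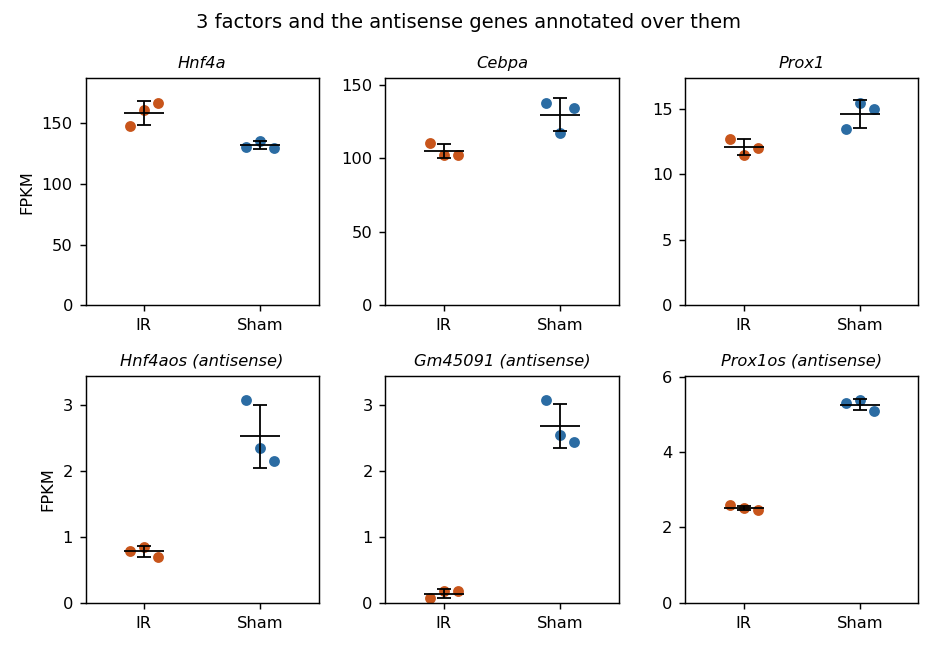
FPKM of Hnf4a, Cebpa and Prox1 (upper row) and of the antisense genes annotated over them (lower row) in each library, IR left and Sham right, with mean ± SD of 3. Each antisense gene lies lower in IR, also for Hnf4a, whose own level is higher in IR. Cebpa and Prox1 are lower with the deposited scaling but had the opposite sign, not passing, under median-of-ratios scaling.

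Other regulators of hepatocyte genes were mostly lower in IR. Of 32 listed, 30 were tested: 25 were lower and 5 higher in IR, with a median log2 fold change of -0.95 against -0.23 for all genes, and 22 were lower and 5 higher under median-of-ratios scaling. As deposited this is 83.3% lower and 16.7% higher, beside 53.8% and 24.3% of all genes tested. With median-of-ratios scaling 32.4% of all genes tested were lower and 42.8% higher. Hhex, a homeobox gene of liver development, was at 4.04 ± 0.267 FPKM in IR and 14.0 ± 1.02 FPKM in Sham (log2 fold change -1.57, limma adjusted p = 5.28e-07), and Tbx3 was at -1.89 and Gata4 at -0.94. Tbx3 had an IR mean under 1 FPKM and passed the filter only through Sham, where it was high.

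Several nuclear receptors were among the lower genes. Nr1h4, the bile acid receptor FXR, was at 23.6 ± 1.64 FPKM in IR and 70.2 ± 1.43 FPKM in Sham (-1.54), and its partner Rxra at 44.7 ± 1.35 FPKM in IR and 72.7 ± 1.93 FPKM in Sham (-0.69). Ppara, the fatty acid receptor, stood at -0.91, Nr1h3, the oxysterol receptor LXR alpha, at -0.96 and Nr2f2 at -1.47. Nr5a2 was lower with the deposited scaling (-0.25, limma adjusted p = 0.0329) but had the opposite sign, not passing, under median-of-ratios scaling. Creb3l3, a membrane-bound factor of the fasting response, was at 48.6 ± 0.979 FPKM in IR and 138 ± 1.61 FPKM in Sham (-1.48). The clock-controlled leucine zipper genes Dbp (-2.98), Hlf (-2.36) and Tef (-1.67) were lower. Those higher were Zbtb20 (1.45), Xbp1, a factor of the unfolded protein response (1.00), Zhx2, a repressor of alpha-fetoprotein (0.93), Gata6 (0.75) and Foxo1 (0.14).

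Among the 9 genes of the C/EBP family and its leucine zipper partners, which include 3 members, 6 were higher, 2 lower and 1 did not pass. With median-of-ratios scaling 7 were higher and 1 lower. All genes tested were higher in 24.3% and lower in 53.8% of cases as deposited, or 42.8% and 32.4% with median-of-ratios scaling. Nfil3, a repressor that shares sites with the clock-controlled group, was at 99.1 ± 12.8 FPKM in IR and 5.55 ± 0.296 FPKM in Sham (3.93, SE 0.0906, limma adjusted p = 3.83e-08). Atf4 (1.49) and Ddit3, the stress-induced C/EBP relative CHOP (0.56), were higher along with Atf3, which had the largest change of the list (5.45). Atf3 had a Sham mean under 1 FPKM and passed the filter only through IR, where it was high. Cebpe, known from granulocyte maturation, was at 0.622 ± 0.0687 FPKM in IR and 2.59 ± 0.195 FPKM in Sham (-1.15). It passed the filter only through Sham, where it was high. Cebpg was at 13.1 ± 0.356 FPKM in IR and 12.7 ± 0.294 FPKM in Sham and did not pass with the deposited scaling, whereas median-of-ratios scaling put it higher in IR with a call (0.41).

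Textbook target genes were counted beside the factors. For comparison, 53.8% of all genes tested were lower and 24.3% higher, or 32.4% and 42.8% with median-of-ratios scaling. Of 14 targets of FOXA and HNF6, 11 were lower and 3 higher (7 lower and 3 higher with median-of-ratios scaling). Igfbp1, an insulin-repressed binding protein, was at 2259 ± 218 FPKM in IR and 218 ± 9.39 FPKM in Sham (3.36), and Tff3 at 13.0 ± 2.75 FPKM in IR and 72.1 ± 16.7 FPKM in Sham (-2.38). Hnf4a and Foxa2 are members of that list themselves.

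Targets of the C/EBP proteins were counted in the same way. Of 15 metabolic targets of C/EBP alpha, 12 were lower and 2 higher as deposited, and 5 lower and 3 higher after median-of-ratios scaling. Among all genes tested, 53.8% were lower and 24.3% higher as deposited, and 32.4% lower and 42.8% higher after median-of-ratios scaling. Under the latter scaling the list's share of lower calls is near that of all genes. Gys2, the liver glycogen synthase, was at 85.3 ± 1.497 FPKM in IR and 175 ± 3.35 FPKM in Sham (-1.02). The 2 higher were Tat and Csf3r, and Csf3r, named after its value was seen, is also a neutrophil marker. Of 19 measured acute phase targets of C/EBP beta and delta, 18 were higher in IR under both scalings, with a median of 1.78. Socs3, the feedback inhibitor of cytokine signalling, was at 126 ± 0.680 FPKM in IR and 3.35 ± 0.266 FPKM in Sham (4.87, SE 0.0543, limma adjusted p = 2.73e-09). The exception was complement C3, named after its value was seen, at 1707 ± 17.9 FPKM in IR and 1997 ± 165 FPKM in Sham (-0.22), which median-of-ratios scaling put at 0.18 without a call. These counts describe the lists and do not test what the factors did. The lists share genes, G6pc among them.

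**Figure D5:**
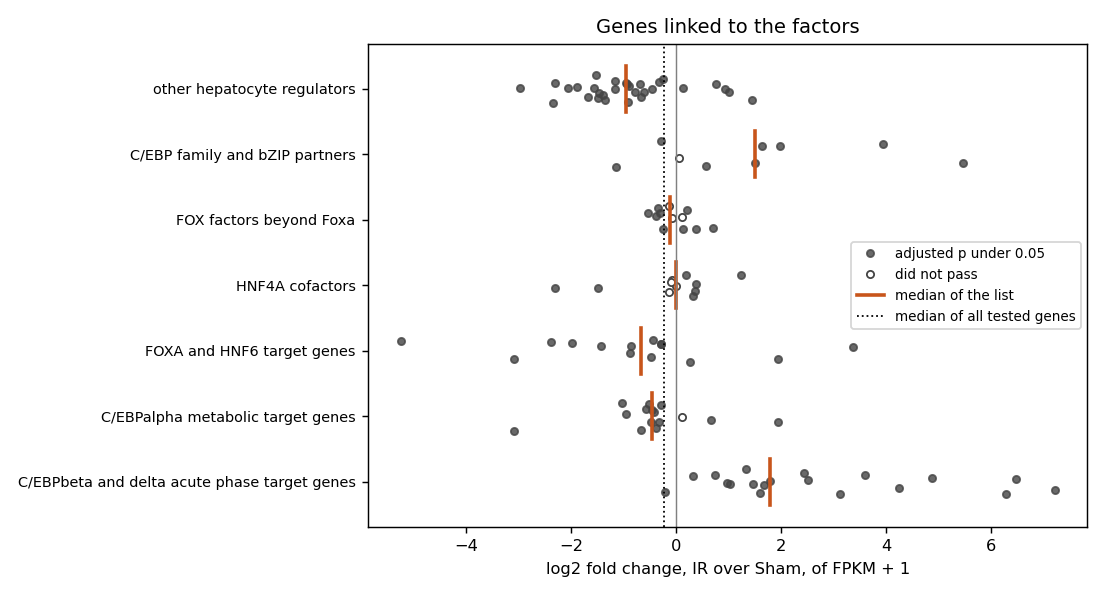
Log2 fold change of FPKM + 1, IR over Sham, of genes in lists linked to the factors. Filled points passed at an adjusted p under 0.05, open points did not. Orange bars are list medians, and the dotted line is the median of all tested genes, -0.23. The acute phase list lies to the right with a median of 1.78 and the other hepatocyte regulators to the left with -0.95.

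Bile duct cells also express Foxa1, Foxa2 and Onecut1. Of 12 cholangiocyte markers 5 were tested, 3 of them higher in IR (among them Sox9, at 2.10 ± 0.112 FPKM in IR and 0.628 ± 0.0424 FPKM in Sham) and 2 lower, Onecut2 among them. Sox9 passed the filter only through IR, where it was high. The defining keratin genes were under the filter. The summed level was 35.1 to 47.3 FPKM in IR and 35.8 to 39.5 FPKM in Sham, of which Spp1 gave 75.7% to 77.7% in IR and 60.2% to 62.6% in Sham. Without Spp1, left out after seeing the values, the other 11 summed to 8.41 to 11.02 FPKM in IR and 14.3 to 14.8 FPKM in Sham. Of 14 measured hepatocyte markers, 9 were lower and 5 did not pass with the deposited scaling, whereas 5 were higher and 1 lower under median-of-ratios scaling. All genes tested were lower in 53.8% and higher in 24.3% of cases as deposited, or 32.4% and 42.8% with median-of-ratios scaling. Sinusoidal endothelial markers summed to 29.4 to 54.3 FPKM in IR and 71.4 to 78.6 FPKM in Sham (9 of 11 lower and 1 higher, or 8 lower and 1 higher with median-of-ratios scaling), and stellate cell and fibroblast markers to 43.4 to 60.9 FPKM in IR and 135 to 143 FPKM in Sham (8 of 10 lower, and with median-of-ratios scaling also 1 higher). Markers of T, B and NK cells were all under the filter, with sums of 1.497 to 2.14 FPKM in IR and 4.02 to 4.90 FPKM in Sham. No marker of these lists was at 0 in every library, and their part in the fall of the factors was not tested.

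The genes most like each member were found by Pearson's r of log2(FPKM + 1) over the 6 libraries among those with a mean of at least 5 FPKM. With 2 groups that differ in most genes such values are high throughout, and 983 of 4891 genes exceeded 0.95 for Cebpb. Closest to Cebpb were Gadd45g (0.9998) and Clu (0.9996), and closest to Cebpd were Saa1 (0.9995) and Pim3 (0.9994). For Hnf4a they were Asxl1 (0.9969) and Extl3 (0.9968), and 134 genes exceeded 0.95. Foxa1 was most like Mrpl39 (0.9992) and Gm11844, Foxa2 like Ctcf (0.9989) and Rab14, and Onecut1 like Ugt3a2 (0.9981) and Ceacam1. Cebpa was most like Hcfc1r1 (0.9972) and Ss18l2. Only 23 genes exceeded 0.95 for Foxa3, led by Rps6-ps4 (0.9840) and Prelid3b, and 23 for Prox1, led by Lsr (0.9884) and Mlec.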

How the data were processed

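The authors deposited expression as FPKM, which divides fragments by gene length and library size, in 1 table with a column per library. Per the submitters' processing notes the genome build was mm10. The aligner, counter, annotation, strand handling and scaling total were not stated in the sources used here. Annotation from GENCODE M21 gave exon lengths and coordinates for 28977 of 29543 IDs. Multiplying FPKM by exon length and a library total gave whole reads, within 0.05, for 98.3% of 27072 listed genes, and so the depths.

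Genes with a mean of at least 1 FPKM entered a limma fit (version 3.58.1, R 4.3.3, trend, two-sided) of log2(FPKM + 1), so with 1 as pseudocount, and p-values were adjusted by Benjamini-Hochberg over every gene tested with a threshold of 0.05. Such fold changes understate those of low genes. A gene high in only 1 group can pass this filter through that group alone. Ratios of 2 genes were compared by exact permutation. The fit was tested on simulated data. Pairs of libraries in a group had a median chi-square of 1.91 to 3.91, against 0.455 for sampling noise, and each was counted once. Named genes are the 9 members, any of the regulator, C/EBP and FOX lists, up to 4 of each other list with the largest change past the threshold, the 2 most similar genes per member, and genes annotated over a member. Ly6g and the markers set apart within a list's sum were named after their values were seen. The members, lists and motifs were chosen with earlier results of these data known, and the motifs also with the windows in view. Other tools were Python 3.11.15, pandas 2.3.3 and scipy 1.17.1. Alternatives were other pseudocounts, filters, scalings and limma settings, a replicate block, voom on rebuilt reads and leaving out each library. Some genes of the lists, 1 list of target genes and 1 motif are not reported here.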

Additional observations from a re-analysis of the deposited data

How the results depend on the processing

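Hnf4a, Foxa3, Cebpb and Cebpd remained higher and Foxa1 and Onecut1 lower in IR, past the threshold, in every alternative that tested them; a filter at a mean of 5 FPKM left out Foxa1 and Onecut1, so that 3 members were lower. Scaling decided the others. Under median-of-ratios scaling over genes above 0 in all libraries, 2 members were lower, Foxa2 stood at -0.079, Prox1 at 0.12 and Cebpa at 0.10, and none of these 3 passed. With the same scaling over the tested genes alone, chosen after seeing the data, 3 members were lower, Prox1 stood at 0.025 and Cebpa at 0.0024 without passing, and Foxa2 at -0.17 passed (adjusted p = 0.0137). Under quantile normalization Prox1, at -0.18, did not pass (adjusted p = 0.0559). Leaving out 1 library ended no member's call; the log2 fold changes without a library ranged from 0.23 to 0.40 for Foxa3, -0.37 to -0.25 for Cebpa and -0.31 to -0.22 for Prox1.

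Of all genes, 2505 were higher and 5548 lower with the deposited scaling. The counts were 4413 and 3341 under median-of-ratios scaling (43.1% of calls lower, against 68.9%), 3939 and 3934 with that scaling over tested genes, 1359 and 2573 with the filter at 5 FPKM, and 3402 and 8843 with no filter. Of the lists, 11 in place of 7 cofactors of HNF4A and 8 in place of 14 metabolic targets of C/EBP alpha passed under median-of-ratios scaling. The cause of these shifts was not tested.

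Libraries of the 2 groups share replicate numbers but nothing ties them: deviations of same-numbered libraries correlated across genes at -0.0389, 0.0117 and -0.104, and 1 of the 3 IR libraries correlated best with its own number. With the replicate block 2473 genes were higher and 5491 lower, and all 9 members kept their calls. Depth limits low genes, where 3 reads were up to 5.59e-06% of a library. Intervals of reads cover counting error only.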

Other observations

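Forkhead genes other than the Foxa group moved in both directions. Of 12 tested, 4 were higher and 5 lower in IR with the deposited scaling, and 6 were higher and 1 lower under median-of-ratios scaling. The shares of all genes tested were 24.3% higher and 53.8% lower as deposited, and 42.8% and 32.4% under median-of-ratios scaling. Foxk2 was the largest, at 7.76 ± 0.298 FPKM in IR and 4.39 ± 0.117 FPKM in Sham (log2 fold change 0.70, limma adjusted p = 5.79e-06). Foxo4 was at 5.69 ± 0.0979 FPKM in IR and 8.67 ± 0.285 FPKM in Sham (-0.53). Foxo3, which responds to insulin and stress signals as Foxo1 does, was at -0.26 with the deposited scaling but at 0.08, not passing, under median-of-ratios scaling.

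Of 11 cofactors of HNF4A, 5 were higher, 2 lower and 4 did not pass with the deposited scaling, while 9 were higher and 2 lower under median-of-ratios scaling. Beside these counts, 24.3% of all genes tested were higher and 53.8% lower as deposited (42.8% and 32.4% with median-of-ratios scaling). The paralogous coactivator genes Ppargc1a and Ppargc1b differed in sign: Ppargc1a was at 7.43 ± 0.738 FPKM in IR and 2.58 ± 0.216 FPKM in Sham (1.23), and Ppargc1b at 0.206 ± 0.0467 FPKM in IR and 2.39 ± 0.120 FPKM in Sham (-1.49, limma adjusted p = 4.38e-07). Nr0b2, the gene of the corepressor SHP, was at 0.816 ± 0.425 FPKM in IR and 7.81 ± 0.602 FPKM in Sham (-2.30). Ppargc1b and Nr0b2 had IR means under 1 FPKM and passed the filter only through Sham, where they were high.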
